A study of Mus musculus with 6 samples.

Results

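The miR-183, miR-96 and miR-182 cluster is a set of 3 microRNAs (miRNAs) cut from 1 transcript, and its 3 members, miR-183-5p, miR-96-5p and miR-182-5p, were taken by name from the 1251 miRNA arms of the deposited table. The libraries were small RNA sequencing profiles of adipose tissue from C57BL/6J mice, an inbred laboratory strain, and were made from total RNA. There were 3 libraries of interscapular brown adipose tissue (BF-EPA 3, 4 and 5) and 3 of inguinal subcutaneous adipose tissue, a white depot (SUB-EPA 1, 3 and 8). Both groups shared the same treatment. Feeding began at an age of 5 to 6 weeks and lasted 11 weeks, on a high fat diet in which fat gave 45% of the energy, carbohydrate 35% and protein 20%. That diet was supplemented with 6.75% eicosapentaenoic acid (EPA), an omega-3 fatty acid, and tissue was taken after a fast of 4 hours. With EPA-fed groups in both tissues, the comparison is between the tissues, not between diets. The labels do not say whether a brown and a subcutaneous library came from the same mouse.

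A miRNA is cut as a short duplex from a hairpin in a longer transcript, and 1 strand of the duplex guides Argonaute proteins to messenger RNAs that match its seed, bases 2 to 8. The cluster is best known from sensory organs, where it is abundant in photoreceptors and hair cells, and it is also expressed in epithelia. Its members have been reported to repress the transcription factor gene Foxo1, and miR-182 has been reported, together with miR-203, to take part in the maintenance of brown adipocytes.

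The mature sequences show how closely the members are related. In the RefSeq records for GRCm38 (the assembly also called mm10), with the seed in capitals and the strand written 5′ to 3′, they are as follows.
miR-183-5p: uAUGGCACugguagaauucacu
miR-96-5p: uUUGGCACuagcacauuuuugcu
miR-182-5p: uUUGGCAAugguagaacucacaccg
Counted from 1 at the 5′ end, the first 8 bases of miR-182-5p and miR-96-5p differ by 1 substitution, A8C, and those of miR-96-5p and miR-183-5p by 1, U2A. The first 8 bases of miR-182-5p and miR-183-5p differ by both. Beyond base 8, miR-182-5p and miR-183-5p are the closest pair, with the same letter at 12 of 14 positions, against 5 of 15 for miR-182-5p and miR-96-5p and 6 of 14 for miR-96-5p and miR-183-5p. The 3 members thus have 3 different seeds. Among the rows of the table matched by name to a mature sequence, no other had one of these seeds.

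The hairpins lie on the minus strand of chromosome 6, in the order of transcription Mir183 (30169668 to 30169737), Mir96 (30169446 to 30169551) and Mir182 (30165918 to 30165992). They span 3820 bases, with 116 bases between Mir183 and Mir96 and 3453 between Mir96 and Mir182. GENCODE M21 places no other gene over them. The nearest annotated genes are the long intergenic RNA Rncr4, 3156 bases away, and the protein-coding genes Nrf1, 12460 bases away on the other side, and Ube2h, 41552 bases away. The hairpins are printed with the 5p arm in capitals, because it holds the member; the arm on the other side of each hairpin was at the lowest value of the table in all 6 libraries.
Mir183: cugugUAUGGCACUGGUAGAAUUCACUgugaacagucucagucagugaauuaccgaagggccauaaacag
Mir96: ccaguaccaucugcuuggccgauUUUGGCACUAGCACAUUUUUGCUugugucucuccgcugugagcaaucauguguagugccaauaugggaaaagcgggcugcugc
Mir182: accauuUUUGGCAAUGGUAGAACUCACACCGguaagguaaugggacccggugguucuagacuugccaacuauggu

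Values are normalized abundances on the log2 scale. The table has a floor at 3.32 (10 on the linear scale), and a miRNA there is listed at the floor, which does not show that it was absent. Of the 1251 arms, 910 were at the floor in all 6 libraries, and 235 to 273 were above it in a library. The read depth of a library cannot be read from these values, so no counting interval is given. Libraries of 1 tissue correlated at 0.936 to 0.973 in brown and 0.914 to 0.963 in subcutaneous fat, and at 0.612 to 0.752 across tissues (Pearson's r across the 269 tested miRNAs, which are not independent replicates).

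SUB-EPA 1 stood apart from the other subcutaneous libraries in miRNAs of epithelia, the cell layers of skin and glands. Of 13 listed epithelial arms, 8 were above the floor in that library, 2 in SUB-EPA 3 and 2 in SUB-EPA 8, and 1 or 2 in each brown library. MiR-205-5p, abundant in stratified epithelium, stood at 15.02 in SUB-EPA 1, 7.35 in SUB-EPA 3 and 5.74 in SUB-EPA 8, while no brown library held it above the floor. The summed level of the list, with the floor subtracted on the linear scale, was 39554 in SUB-EPA 1, 299 to 411 in the other 2 subcutaneous libraries and 267 to 387 in brown fat. Tissue differences of the members are therefore given with and without this library. Calls of the lists of miRNAs described below are also given without it where their number changed. BF-EPA 4 and SUB-EPA 3 stood apart in the muscle miRNA miR-133a-3p, at 17.20 and 16.90, against 10.32 to 13.32 elsewhere.

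MiR-182-5p was the most abundant member in every library. In brown fat it stood at 12.65 in BF-EPA 3, 11.94 in BF-EPA 4 and 12.89 in BF-EPA 5. In subcutaneous fat it stood at 12.20 in SUB-EPA 1, 9.35 in SUB-EPA 3 and 9.50 in SUB-EPA 8. The brown libraries lay close together, while SUB-EPA 1 lay within the brown range and far above the other 2 of its own tissue, so the groups overlapped. The groups did not overlap for 74% of the 269 tested miRNAs, 33.8% with brown fat above and 40.1% with brown fat below. Among the arms of each library, miR-182-5p ranked between 40 and 54 in brown fat, 50 in SUB-EPA 1, and 101.5 and 106 in the other 2 subcutaneous libraries, where a rank that is not whole marks a tie.

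The tissue difference of miR-182-5p was 2.15 ± 0.78 on the log2 scale (SE, n = 3 per tissue), or 4.43-fold higher in brown fat (limma adjusted p = 0.047, 95% interval of the log2 difference 0.25 to 4.04). Over all 269 tested miRNAs, 69.1% passed the same test, 33.5% as higher and 35.7% as lower in brown fat, so a call is close to the usual outcome in this comparison. By size of the excess in brown fat, miR-182-5p came 61 among the 269, and the median difference of all tested was -0.45. Without SUB-EPA 1 the difference of miR-182-5p was 3.07 ± 0.32 (SE), 8.4-fold, with a limma adjusted p of 0.0013, and 69.9% of tested miRNAs were then called. Leaving out any one of the other 5 libraries gave 1.64 to 2.43 and adjusted p-values of 0.0859 to 0.156, so the call was lost in each case. Over all alternatives the adjusted p of miR-182-5p lay between 0.0013 and 0.298.

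**Figure D1:**
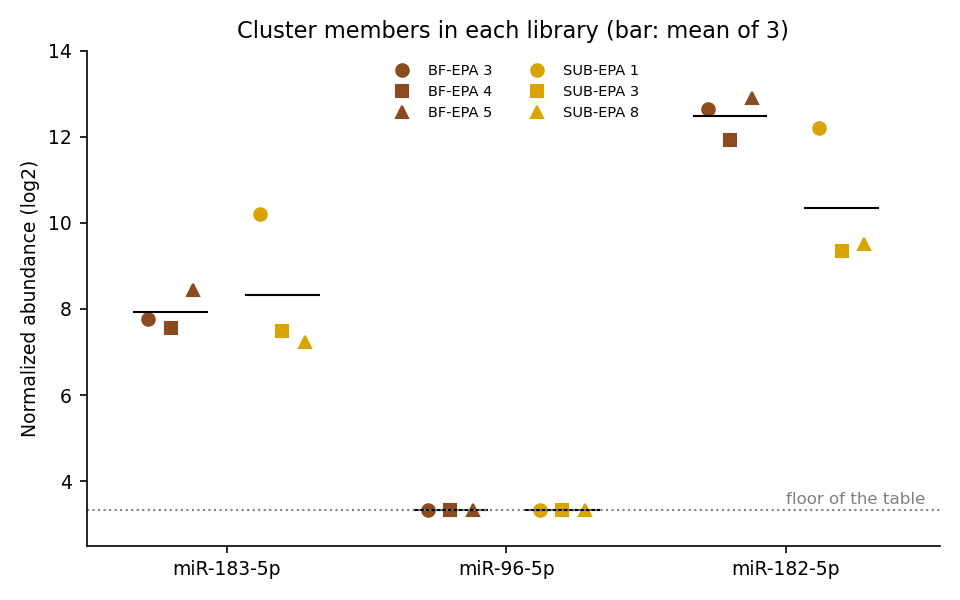
Normalized abundance (log2) of the 3 members in each library, with brown libraries in brown, subcutaneous libraries in yellow and a bar at the mean of 3. SUB-EPA 1 is at 12.20 for miR-182-5p and 10.21 for miR-183-5p, above the other subcutaneous libraries, and miR-96-5p is at the floor of 3.32 in all 6.

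MiR-183-5p, the first hairpin of the transcript, was lower than miR-182-5p in all 6 libraries and showed no call between the tissues. It stood at 7.77 in BF-EPA 3, 7.55 in BF-EPA 4 and 8.43 in BF-EPA 5. It stood at 10.21 in SUB-EPA 1, 7.50 in SUB-EPA 3 and 7.24 in SUB-EPA 8. SUB-EPA 1 was the highest of all 6 libraries, and the other 2 subcutaneous libraries were the lowest, so the brown values lay between them. The difference between tissues was -0.39 ± 0.81 (SE, n = 3 per tissue, limma adjusted p = 0.678), with a 95% interval of -2.35 to 1.56. This interval covers a level 2.96-fold higher in brown fat, and the p therefore does not show equal levels.

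The sign of the miR-183-5p difference depended on the setting. Without SUB-EPA 1 it was 0.55 ± 0.36 (SE, limma adjusted p = 0.227), after median-of-ratios scaling 0.02, and with each library's trend with GC content removed 0.999 (adjusted p = 0.274). That scaling also moved the median of all tested miRNAs from -0.45 to -0.04.

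**Figure D2:**
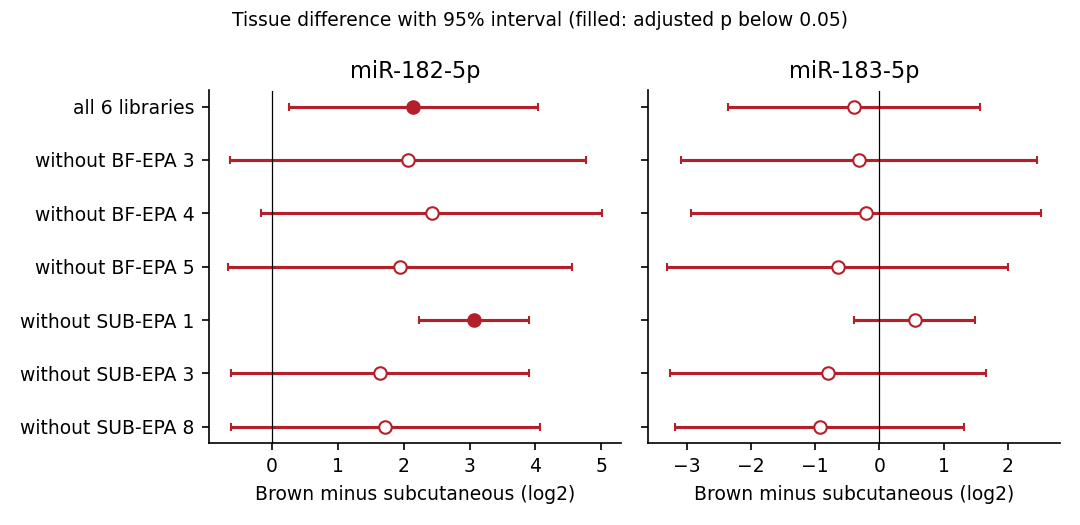
Brown minus subcutaneous difference (log2) with its 95% interval from limma, over all 6 libraries and with each library left out, filled where the adjusted p is below 0.05. For miR-182-5p the interval is narrowest without SUB-EPA 1 (2.24 to 3.90), and for miR-183-5p the interval includes 0 in each of the 7 fits shown.

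**Figure D3:**
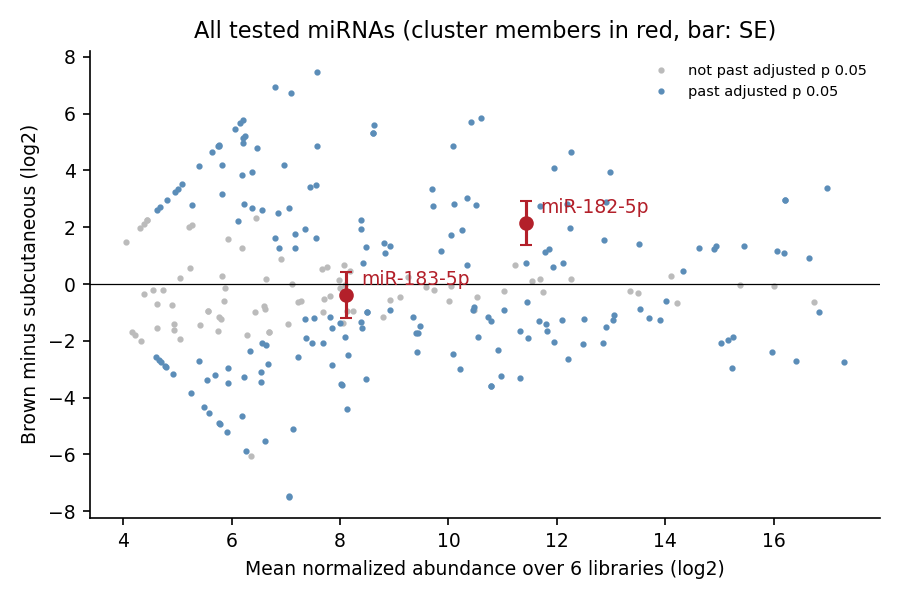
Tissue difference (log2) against mean abundance (log2) for the 269 tested miRNAs, blue where the adjusted p is below 0.05 and grey otherwise, with the 2 tested members in red and their SE as bars. MiR-182-5p at 2.15 lies among many miRNAs with larger differences, and miR-183-5p at -0.39 lies near the median of -0.45.

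MiR-96-5p, encoded between the other two, was listed at the floor in all 6 libraries and could not be tested. The other arms of the hairpins, miR-183-3p, miR-96-3p and miR-182-3p, were also listed at the floor in all 6. Other miRNAs listed at the floor are given for comparison, and the reason for any of these listings was not tested. MiR-1a-3p, among the most abundant miRNAs of muscle, was at the floor in all 6 libraries, including BF-EPA 4, where miR-133a-3p stood at 17.20. MiR-142-3p, a general leukocyte miRNA, was at the floor in all 6 libraries while miR-142-5p stood at 5.92 to 9.01. MiR-1a-3p and miR-142-3p were picked after their values were seen. With miR-96-5p at the floor throughout, its ratios to the other 2 members were not computed, and 1 of the 3 ratios remained.

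The ratio of miR-182-5p to miR-183-5p within a library separated the tissues, including SUB-EPA 1. On the linear scale the ratio was 29.6 in BF-EPA 3, 20.8 in BF-EPA 4 and 22.0 in BF-EPA 5. It was 3.98 in SUB-EPA 1, 3.60 in SUB-EPA 3 and 4.81 in SUB-EPA 8. All 3 brown values lay above all 3 subcutaneous values, and SUB-EPA 1, which was high in both members, fell between the other 2 libraries of its tissue. Ratios did not overlap between tissues for 72.9% of all pairs of tested miRNAs above the floor in every library, so such a separation was the usual outcome. In terms of the members' summed level with the floor subtracted, miR-183-5p made up 3.13% to 4.36% in brown fat and 16.4% to 21.1% in subcutaneous fat.

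The log2 ratio averaged 4.58 ± 0.27 (SD, n = 3) over the brown and 2.03 ± 0.21 over the subcutaneous libraries, a difference of 2.54 or 5.82-fold. The exact two-sided permutation test gave p = 0.10, the smallest value that 3 against 3 libraries allow, so the design cannot reach 0.05. Leaving out any one library gave differences of 2.39 to 2.66. The spread of the ratio within subcutaneous fat (SD 0.21) was smaller than that of either member (SD 1.60 for miR-182-5p and 1.64 for miR-183-5p), as the 2 members were high together in SUB-EPA 1. The size of the ratio itself also carries the sequence-dependent efficiency of adapter ligation, which differs between miRNAs, so it is not a ratio of molecules.

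**Figure D4:**
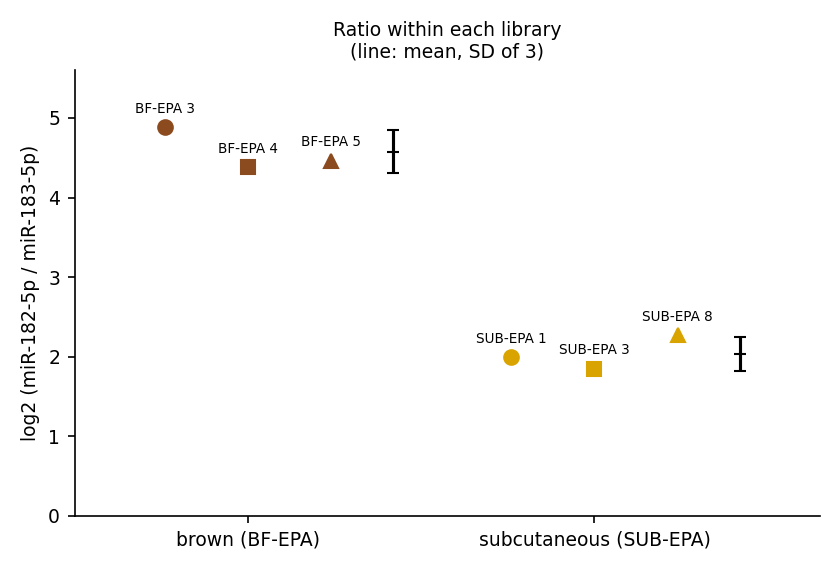
Log2 ratio of miR-182-5p to miR-183-5p in each library, by tissue, with the mean and SD of 3 as a line beside the points. Brown libraries lie between 4.38 and 4.89 and subcutaneous libraries between 1.85 and 2.27.

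Values that moved with the ratio are given here, and their part in it was not tested beyond the GC setting. GC content was 48.0% in miR-182-5p and 40.9% in miR-183-5p. Across tested miRNAs with a mature sequence, log2 abundance rose by 0.17 to 0.26 for 10 points of GC in brown libraries and fell by 0.91 to 1.22 in subcutaneous libraries. With each library's trend removed, an alternative added after seeing the data, the difference of the log2 ratio was 1.62 or 3.07-fold (exact permutation p = 0.10), and all 3 brown libraries remained above all 3 subcutaneous libraries. The share of other pairs without overlap was not computed in that setting. The deposited columns share nearly 1 distribution of values, so ranks were also compared. MiR-183-5p ranked 92 to 113 places below miR-182-5p in brown fat and 37.5 to 73.5 places below it in subcutaneous fat.

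A separation of the tissues by such a ratio was common. Of 40 pairs of tested miRNAs that came from different hairpins within 10000 bases on 1 strand and were above the floor in every library, 60% had ratios that did not overlap between tissues, against 72.9% of all 14196 pairs of tested miRNAs above the floor. The pair of miR-182-5p and miR-183-5p came 10 among those 40 by size of the tissue difference, for which the median was 1.07 on the log2 scale. Many of these pairs share a miRNA and are not independent. The 40 cover only miRNAs matched by name to a single mature sequence record, so other pairs encoded as close together can be missing.

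Summed over the cluster, with the floor subtracted on the linear scale, abundance was 6647 in BF-EPA 3, 4086 in BF-EPA 4 and 7932 in BF-EPA 5. It was 5857 in SUB-EPA 1, 811 in SUB-EPA 3 and 856 in SUB-EPA 8. The sum follows miR-182-5p, and SUB-EPA 1 again lay within the brown range. In bulk tissue, fewer cells that contain a miRNA and less of it per cell cannot be told apart.

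The excess of both members in SUB-EPA 1 went along with that of epithelial miRNAs. By the gap between SUB-EPA 1 and the mean of the other 2 subcutaneous libraries, miR-205-5p came first of the 269 tested miRNAs at 8.48 on the log2 scale. MiR-200b-3p (6.20), miR-429-3p (5.07), miR-203-3p (4.33) and miR-141-3p (3.71), all of the epithelial list, followed, then miR-21a-3p (3.03), miR-183-5p (2.84) and miR-182-5p (2.77), against a median of -0.06. The places depend on the filter. MiR-200b-3p, miR-429-3p and miR-141-3p were at the floor in SUB-EPA 3 and SUB-EPA 8 and passed the filter through their SUB-EPA 1 values. MiR-200c-3p and miR-200a-3p, at 7.26 and 6.34 in SUB-EPA 1 and at the floor elsewhere, failed it and have no place in this order. For the 4 epithelial miRNAs that led, the sequences, seed in capitals, show no seed of the cluster. MiR-200b-3p and miR-429-3p share a seed.
miR-205-5p: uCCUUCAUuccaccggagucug
miR-200b-3p: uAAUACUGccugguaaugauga
miR-429-3p: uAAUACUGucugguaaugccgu
miR-203-3p: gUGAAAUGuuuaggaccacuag
In SUB-EPA 3 and SUB-EPA 8, 2 of the 13 epithelial arms were above the floor, miR-203-3p at 7.28 and 8.56 and miR-205-5p at 7.35 and 5.74, beside miR-182-5p at 9.35 and 9.50. In brown fat, miR-203-3p stood at 7.80 to 8.56, miR-141-3p at 6.01 in BF-EPA 4 and miR-200b-3p at 4.91 in BF-EPA 5, with the rest of the list at the floor. The part of epithelial cells in the members' values was not tested.

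**Figure D5:**
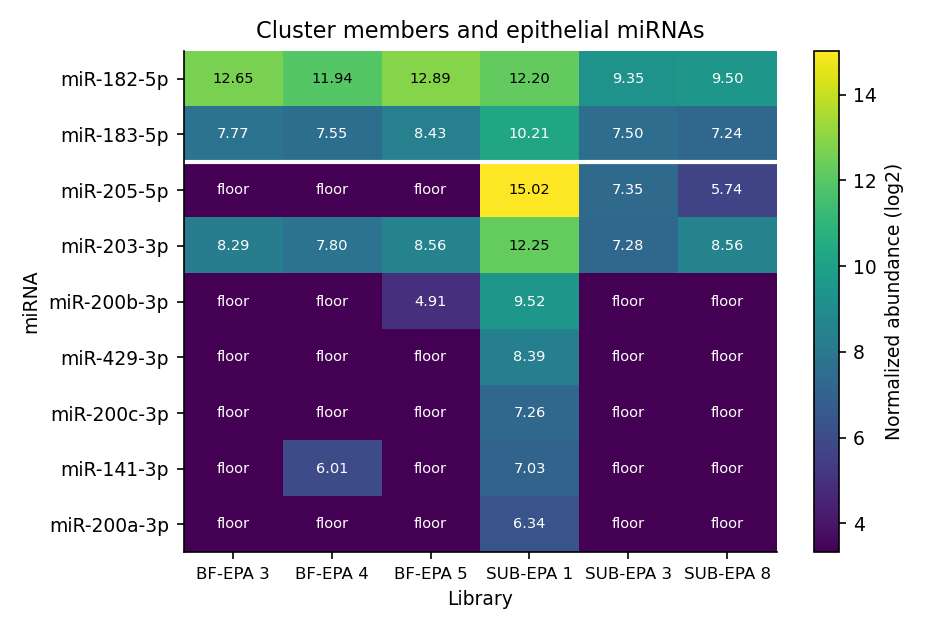
Normalized abundance (log2, colour and printed value) of the 2 members above the floor and of the epithelial miRNAs above the floor with a named value, by library, with a white line between the sets. SUB-EPA 1 has the highest value of miR-183-5p and of each epithelial miRNA shown, while its miR-182-5p value of 12.20 lies between those of the brown libraries.

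Of the 13 epithelial arms, 5 were tested and none passed between the tissues, by limma, with all 6 libraries; at an unadjusted p below 0.05 there was 1, miR-205-5p (-6.05 ± 2.30 SE, adjusted p = 0.0536). Over all tested miRNAs 69.1% passed, and 69.9% without SUB-EPA 1. With all 6 libraries the median difference of the 5 was -1.54, against -0.45 over all tested. Leaving out SUB-EPA 1 gave differences of 0.30 for miR-203-3p, 0.53 for miR-200b-3p and 0.89 for miR-141-3p, and miR-429-3p was then at the floor throughout. Without SUB-EPA 1, 1 of the 5, miR-205-5p, was called lower in brown fat (-3.22 ± 0.56 SE, adjusted p = 0.00688), and it was also called with the stricter filter, the floor subtracted, robust variances, the GC trend removed or SUB-EPA 8 left out (adjusted p 0.0197 to 0.0495). MiR-203-3p, reported with miR-182 in brown adipocytes, stood at 8.29, 7.80 and 8.56 in brown fat and at 12.25, 7.28 and 8.56 in SUB-EPA 1, 3 and 8. Its difference was -1.15 ± 1.21 (SE, adjusted p = 0.418), and its SUB-EPA 1 value, like that of the members, was far above the others.

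The muscle list followed other libraries. Of 6 listed arms, 3 were above the floor and tested, and 0 were called by limma; at an unadjusted p below 0.05 there were also 0. By comparison, 69.1% of all tested miRNAs were called. The median difference of the 3 was -0.31, against -0.45 over all tested. Within a tissue their spread was wide, as for miR-133a-3p, with an SD of 3.52 in brown and 3.10 in subcutaneous fat. The summed level of the list was 151209 in BF-EPA 4 and 123084 in SUB-EPA 3, against 1264 to 10308 in the other 4 libraries. MiR-182-5p was lowest of its tissue in both BF-EPA 4 and SUB-EPA 3, though SUB-EPA 3 at 9.35 was close to SUB-EPA 8 at 9.50. MiR-183-5p was lowest of its tissue in BF-EPA 4 and in SUB-EPA 8, not SUB-EPA 3. Without these 2 libraries, an alternative added after seeing the data, the difference of miR-182-5p was 1.92 (adjusted p = 0.202) and that of the log2 ratio to miR-183-5p was 2.54. The part of muscle tissue in these values was not tested.

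Other miRNAs of sensory organs and neurons were mostly at the floor, as were most arms of the table. Of 14 listed, 12 were in the table, 3 were above the floor in at least 1 library and 2 were tested. This is near the share of the whole table, where 341 of 1251 arms were above the floor in at least 1 library. Of the 2 tested, 1 was called, where 69.1% of all tested miRNAs were called. MiR-204-5p, abundant in the retinal pigment epithelium, was higher in brown fat by 0.68 ± 0.23 (SE, limma adjusted p = 0.0357), at 10.69 ± 0.14 (SD, n = 3) against 10.01 ± 0.36. That call was lost without any one brown library or without SUB-EPA 8 (adjusted p 0.0515 to 0.106), without both libraries numbered 3 (0.120), without BF-EPA 4 and SUB-EPA 3 (0.101) and without a mean-variance trend (0.0534). MiR-128-3p, a neuronal miRNA, differed by -0.03 ± 0.57 (SE, adjusted p = 0.965).

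Of 10 listed miRNAs reported to repress Foxo1, which include the 3 members, 6 were above the floor and tested, with 2 called as higher and 2 as lower in brown than in subcutaneous fat, with a median of -0.54 against -0.45 over all tested. These 4 calls of 6 are near the share over all tested miRNAs, where 33.5% were called higher and 35.7% lower, together 69.1%. MiR-182-5p was 1 of the 2 higher. Those lower in brown fat were miR-223-3p, which is typical of myeloid cells, with a log2 difference of -5.51 ± 0.56 (SE, limma adjusted p = 0.000232) and 2 brown libraries at the floor, and miR-27a-3p, an inhibitor of adipocyte differentiation, at -1.39 ± 0.14 (SE, adjusted p = 0.000197). Without SUB-EPA 1, 2 of the 6 were called higher and 3 lower, where 69.9% of all tested miRNAs were called.

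Of 9 listed miRNAs of brown adipocytes, miR-182-5p among them, 8 were tested, with 6 called as higher and 1 as lower in brown fat and a median of 1.69. Over all tested miRNAs 69.1% were called, 33.5% as higher, with a median of -0.45. MiR-455-3p, which promotes brown adipogenesis, averaged 13.52 ± 0.52 (SD, n = 3) in the brown libraries and 7.69 ± 1.57 in the subcutaneous ones, and miR-193b-3p at 14.95 ± 0.39 and 11.00 ± 0.21. MiR-328-3p stood at 13.05 ± 0.15 and 10.32 ± 0.58. These 3, the tested arms of the list with the largest differences, were lowest in SUB-EPA 1 among the subcutaneous libraries. MiR-182-5p was highest there, and so was miR-203-3p of the same list. The latter stood at 12.25 in SUB-EPA 1, 7.28 in SUB-EPA 3 and 8.56 in SUB-EPA 8. The arm called lower in brown fat was miR-30b-5p (log2 difference -1.16 ± 0.27 SE, limma adjusted p = 0.00807). Of 8 listed leukocyte miRNAs, 4 were tested, with 1 higher and 3 lower in brown fat and a median of -2.59, where 69.1% of all tested miRNAs were called. The member higher in brown fat was miR-150-5p, abundant in lymphocytes (1.27 ± 0.19 SE, limma adjusted p = 0.00159). The summed level of that list went the other way from its median, at 33362 to 45420 in brown and 15051 to 20196 in subcutaneous fat, with SUB-EPA 1 at 18594. Among the 3 lower, miR-142-5p averaged 6.64 ± 0.63 (SD, n = 3) in the brown and 8.72 ± 0.40 in the subcutaneous libraries. Without SUB-EPA 1, 1 leukocyte miRNA was called higher and 2 lower, where 69.9% of all tested miRNAs were called. MiR-146a-5p then lost its call (limma adjusted p = 0.0693).

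Hairpins near the cluster on chromosome 6 included Mir129-1 and Mir335. Mir129-1 lies 1143 kb before the cluster in the coordinates of the chromosome and Mir335 lies 572 kb beyond it. MiR-129-5p, which is also encoded on chromosome 2, averaged 10.27 ± 0.45 (SD, n = 3) in brown fat, with every subcutaneous library at the floor, and miR-129-1-3p, particular to the hairpin on chromosome 6, stood at 4.63 to 5.20 in brown fat and was not tested. The corresponding arm from chromosome 2, miR-129-2-3p, picked after its values were seen, averaged 11.30 ± 0.41 (SD, n = 3) in brown fat. MiR-335-3p and miR-335-5p averaged 10.78 ± 0.40 and 8.21 ± 0.49 in subcutaneous fat (SD, n = 3), with every brown library at the floor. Mir29a and Mir29b-1, 893 kb beyond the cluster, were noticed after the list was made. MiR-29a-3p was lower in brown fat (log2 difference -0.87 ± 0.18 SE, limma adjusted p = 0.00583), but its difference was 0.53 (adjusted p = 0.0382) with the GC trend removed and its call was lost after median-of-ratios scaling (adjusted p = 0.0622). Of the 4 listed arms 3 were tested, with 1 higher and 2 lower in brown fat, against 69.1% called over all tested miRNAs. Each of these 3 was at the floor in every library of 1 tissue, so it passed the filter only through the tissue where it was high. Their calls are therefore no result about the neighbours as a set.

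The tested miRNAs whose values were most like those of a member over the 6 libraries differed for the 2 members. For miR-182-5p they were miR-5115 (Pearson's r = 0.912), miR-127-3p (0.908), miR-210-5p (0.847), miR-410-3p (0.838) and miR-434-3p (0.823). Without SUB-EPA 1, r for these 5 was 0.817 to 0.972. MiR-210-5p, an arm of a hypoxia-responsive miRNA, was higher in brown fat by 1.94 ± 0.41 (SE), or -0.22 with the GC trend removed, while miR-127-3p, of the imprinted region between Dlk1 and Dio3, ranged only from 13.74 to 14.41. For miR-183-5p they were miR-200b-3p (0.984), miR-191-5p (0.946), miR-429-3p (0.930), miR-203-3p (0.928) and miR-17-5p (0.822), of which 3 are on the epithelial list. Without SUB-EPA 1, r was 0.908 for miR-200b-3p, whose value above the floor then rests on BF-EPA 5 alone, 0.596 for miR-191-5p, 0.346 for miR-203-3p and -0.25 for miR-17-5p, and miR-429-3p had no spread left. These correlations are descriptions over 6 libraries of 2 tissues and were the highest of 268 for each member.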

How the data were processed

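MiRNA abundance in 6 mouse adipose libraries was read from the deposited table, whose values are log2 abundances that the authors computed. Reads had been mapped to mm10, per the series' design text, and unique-read counts were divided by the usable total with 40 counts added. The aligner is not given in the sources used here. All values, in which the 40 added counts do not show, have a floor of 10 on the linear scale. At 64% of the top 100 ranks, the 6 libraries had the same value (tolerance 1e-06), so differences are relative to the rest of each library. Depth is unknown.

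The comparison of tissues used limma 3.58.1 (R 4.3.3, mean-variance trend, Benjamini-Hochberg adjustment, threshold 0.05) for the 269 miRNAs whose mean linear value above the floor was at least 24.0, a cut-off proportional to the average column sum. The p-values cover only the spread between these samples, which may be technical. The ratio of members was compared with an exact permutation test (scipy 1.17.1). The fit was tested on simulated data. Figures were drawn with matplotlib 3.10.9.

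Members and lists were chosen with earlier results of these data known, so lists have counts and medians only. Named miRNAs were the members, their other arms, the listed neighbours on chromosome 6, and up to 3 tested arms of each list with the largest differences. The 5 nearest to each tested member by Pearson's r were also named. Added after their values were seen were miR-29a-3p, miR-29b-3p, miR-141-3p, miR-200a-3p, miR-200c-3p, miR-1a-3p, miR-142-3p, miR-150-5p, miR-30b-5p and miR-129-2-3p. Mature sequences came from RefSeq (GRCm38.p6) and were matched by name for 229 of the tested miRNAs (85.1%). The alternatives were other filters, pseudocounts, scaling, variance models, removal of GC trends and leaving out libraries.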

Additional observations from a re-analysis of the deposited data

How the results depend on the processing

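The higher level of miR-182-5p in brown fat kept its direction in all 16 alternatives (1.56 to 3.07 on the log2 scale) and its limma call in 7 of them. The call was lost with the floor subtracted and 1 added (2.16, adjusted p = 0.0634), without a mean-variance trend (2.15, 0.0632), without both libraries numbered 3 (1.56, 0.298) and, as an alternative added after seeing the data, without BF-EPA 4 and SUB-EPA 3 (1.92, 0.202). With 1 library left out the difference lay between 1.64 and 3.07; it was called without SUB-EPA 1 alone. MiR-183-5p was not called in any alternative. Its difference turned positive after median-of-ratios scaling (0.024), with the GC trend removed (0.999) and without SUB-EPA 1 (0.55), and lay between -0.93 and 0.55 with 1 library left out. The causes of these changes were not tested. The number of called miRNAs was 148 to 189 in the alternatives, against 186 of 269, except with the stricter filter. With that filter it was 127 of 157 tested (80.9%). With no filter it was 187 of 341 tested (54.8%), the lowest share of all settings. The 148 were of 229 with a sequence for the GC trend. The log2 ratio of miR-183-5p to miR-182-5p was lower in brown fat in all 11 alternatives (difference -2.66 to -1.62, with -2.54 over all libraries); the value nearest 0 came with the GC trend removed. No paired analysis was possible because the tissues share only the number 3, and nothing in the labels says that it marks 1 mouse. Depth and counting error are unknown, and miR-96-5p, at the floor in all libraries, could not be fitted in any setting.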

Other observations

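Other pairs of clustered miRNAs gave values on both sides of those of miR-182-5p and miR-183-5p. The tissue difference of the log2 ratio was 3.12 for miR-322-5p and miR-351-5p on chromosome X and 1.57 for miR-221-3p and miR-222-3p, both without overlap between tissues. It was 0.13 for miR-23a-3p and miR-27a-3p and 0.13 for miR-425-5p and miR-191-5p, both with overlap. These pairs were picked after their values were seen, as examples from the 40.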
